A study of Mus musculus with 6 samples.

Results

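Egr1, Egr2, Egr3, Ier2, Ier3, Dusp1, Zfp36, Nr4a1, Btg2 and Klf6 are immediate early genes outside the AP-1 family, and they were taken by gene symbol as 10 of the 56953 genes in a table of RNA-seq counts from cultured mouse pancreatic acini. Of the 10, 9 passed the filter on low counts and were tested, and Egr3 did not. The acini, clusters of enzyme-secreting cells, had been embedded in Matrigel for an ex vivo assay of acinar-to-ductal metaplasia (ADM), in which explanted acinar cells take on duct-like features, and RNA was taken at day 3. Each of the 3 groups had 2 libraries.

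The first group (WT) came from wild-type mice labelled 10 and 11 weeks old, and the second (DD) from Dkk3 knockout mice labelled 12 and 13 weeks. The third group (DD + rDKK3) came from Dkk3 knockout mice labelled 14 and 15 weeks, and its acini received recombinant soluble DKK3, a secreted glycoprotein. All cultures were kept in Waymouth medium with fetal bovine serum, a trypsin inhibitor and dexamethasone, a synthetic glucocorticoid. The knockout allele is ubiquitous, so every cell type in a DD culture lacks exon 2, which encodes the signal sequence of the secreted protein. The labelled ages rise by 1 week from each library to the next, so it is uncertain whether they are the animals' own ages. As labelled, age and group cannot be told apart, and the labels do not say whether same-numbered DD and DD + rDKK3 cultures came from 1 animal. WT 2 is labelled female and the other 5 libraries male. WT 2 was the library with Xist counts (16, against 0 in the others), but its summed level of 4 Y-linked genes, 141 CPM, lay within the range of the others (119 to 147 CPM), which goes against its label.

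Immediate early genes are transcribed within minutes of a stimulus, without new protein synthesis, from promoters bound by factors that are already in the cell. ERK signalling reaches many of them through serum response factor (SRF) and its ternary complex partners at the CArG box, and through CREB at the cyclic AMP response element (CRE). The messages are mostly short-lived, and several of their products, among them DUSP1 and ZFP36, feed back on the signal. Dissociation of a tissue is itself a known inducer of these genes, and cells had been held on ice in a gel-recovery solution before RNA isolation.

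Promoter sequences are shown because SRF and CREB sites are the known entry points of the stimulus. Windows from 250 bases before to 50 bases after a transcription start were taken from RefSeq (GRCm38.p6), in which 7 of the 10 genes had 11 windows, Egr1, Egr3 and Ier2 having none, and the positions below come from an exact match to GRCm39. In each line the motif is in capitals. The first 3 lines hold a CArG box, which 1.63% of 32851 windows contained on either strand. The last 2 lines hold the full CRE TGACGTCA, which 1.79% contained.
Egr2, chr10:67373294-67373363, plus strand: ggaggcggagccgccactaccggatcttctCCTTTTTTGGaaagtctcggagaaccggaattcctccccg
Egr2, chr10:67373597-67373666, plus strand: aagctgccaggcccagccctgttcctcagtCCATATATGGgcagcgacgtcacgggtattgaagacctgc
Zfp36, chr7:28078692-28078721, minus strand: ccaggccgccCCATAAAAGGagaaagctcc
Dusp1, chr17:26727552-26727619, minus strand: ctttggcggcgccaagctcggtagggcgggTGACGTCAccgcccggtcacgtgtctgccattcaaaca
Btg2, chr1:134007022-134007089, minus strand: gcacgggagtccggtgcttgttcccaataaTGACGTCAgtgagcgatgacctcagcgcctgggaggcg

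The CArG box began 72 bases before a start in both Egr2 lines and 58 bases before it in Zfp36. The CRE began 143 bases before the start in Dusp1 and 166 bases before it in Btg2. In the GENCODE M39 annotation the Egr2, Dusp1 and Btg2 stretches lay in an intron of another transcript of the same gene, in Btg2 one that begins upstream of the span given for the gene below, which is that of the count table, and the Zfp36 stretch in an exon of another Zfp36 transcript. An EGR site (GCGNGGGCG, 5.55% of windows) was found in Zfp36, Btg2 and Nr4a1. The CRE core TGACG, which lies within the full CRE and occurred in 20.8% of windows, was present 4 times in the window of Nr4a1, 3 times in that of Dusp1, 2 times in that of Btg2 and 2 times in each of 3 overlapping Egr2 windows, among them the window of the second Egr2 line. No window of these 7 genes held TATAAA (13.6%) or the glucocorticoid receptor element GNACANNNTGTNC (0.475%). These are matches of letters in a window and were not tested for binding.

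Several facts of the whole series bear on what follows. Library totals ranged from 12018473 to 19750401 counts. The labelled cell type was seen in the acinar markers, 9 of 9 of which were measured and which summed to between 82774 and 142218 CPM (TMM-scaled CPM, the usual count unit normalised to depth), with Ctrb1 and Prss2 leading. The Dkk3 gene itself was counted 10 and 1 times in WT, 11 and 9 times in DD and, with rDKK3, 5 and 5 times, and gene-level counts hide exon 2, so they are no check of the labels. Fibroblast and stellate markers (10 of 10 measured) summed to 134 and 51.8 CPM in WT, 72.4 and 773 in DD and, with rDKK3, 159 and 854, so DD 2 and DD + rDKK3 2 stood apart. The sum was led by the collagen genes Col1a1, Col1a2 and Col3a1. Des, a low gene of the list, did not follow it. Des had 1.08 and 2.32 CPM in WT, 1.18 and 1.29 in DD and, with rDKK3, 0.423 and 1.24. In bulk RNA, fewer cells of a type and less RNA per cell cannot be told apart.

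The level of each gene was compared first, in CPM per kilobase of canonical transcript averaged over the 6 libraries. Btg2, an antiproliferative cofactor of mRNA deadenylation, was highest at 182, and its lowest library lay above the highest library of every other member. Ier3, a stress-induced regulator of survival, and Klf6, a zinc finger transcription factor, followed at 84.2 and 76.3, and their ranges overlapped. Ier2 (42.0), Dusp1 (30.7), Zfp36 (24.4) and Egr1 (20.4) formed a group in which each range overlapped the next. Nr4a1 (1.78) and Egr2 (1.54) were low and overlapped each other, and Egr3 was at 0.0422.

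**Figure D1:**
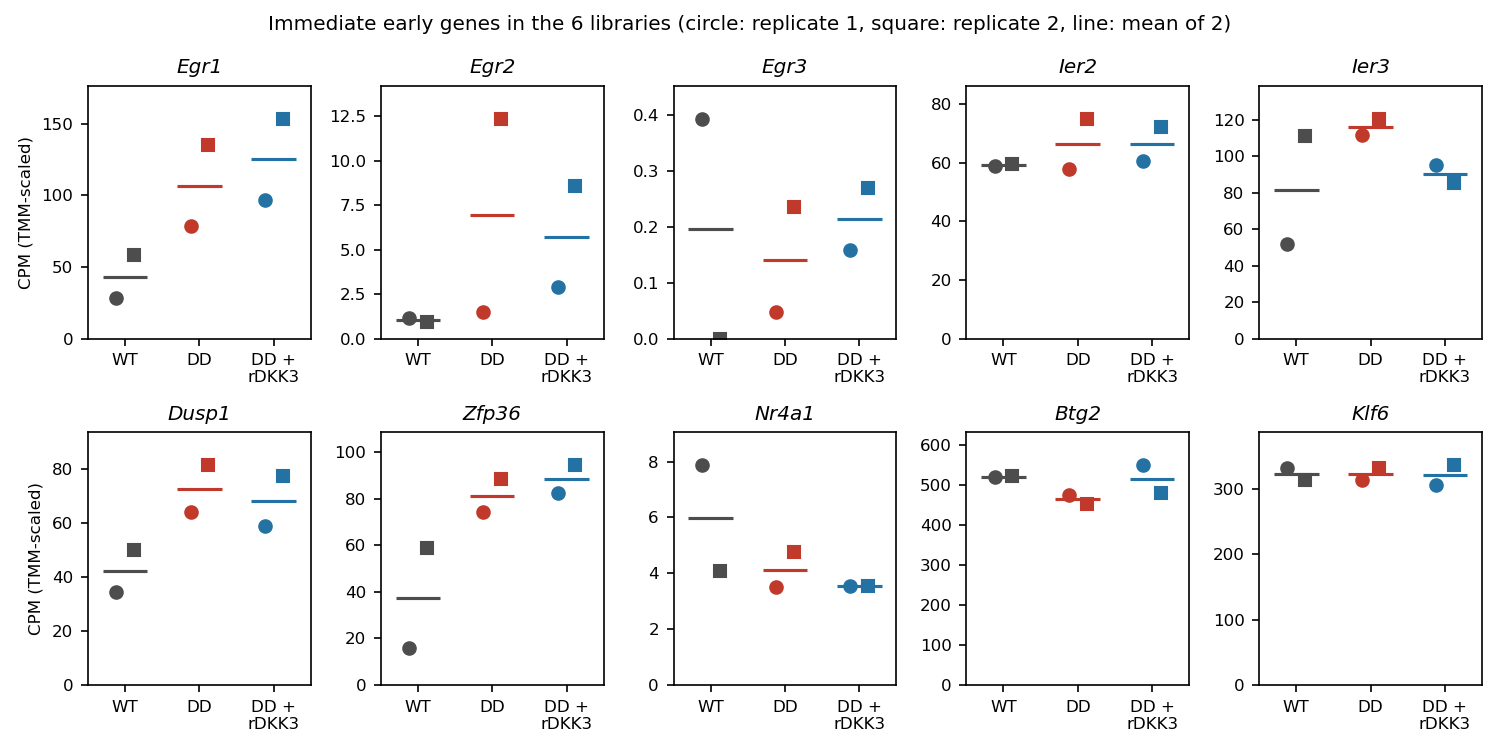
Level of each of the 10 genes in CPM (TMM-scaled, linear axis from 0) by group, with a circle for replicate 1, a square for replicate 2 and a line for the mean of 2 libraries. Egr1, Dusp1 and Zfp36 lie above both WT libraries in all 4 Dkk3-null libraries, whereas Klf6 spans 307 to 336 CPM over all 6 libraries.

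Of the EGR family, zinc finger transcription factors that bind GC-rich sites and that are held in check by the corepressors NAB1 and NAB2, Egr1 (ENSMUSG00000038418.8, chromosome 18, 34992876 to 34998037, GRCm39) was the most abundant. It reached 28.3 and 58.1 CPM in WT, 78.4 and 135 CPM in DD and, with rDKK3, 96.9 and 153 CPM. All 4 Dkk3-null libraries were thus above both WT libraries, and the step from WT 1 to WT 2 was larger than that from WT 2 to DD 1. The log2 fold change was 1.30 in DD versus WT (SE 0.402, 2.46-fold), with an unadjusted p of 0.0127 and an edgeR quasi-likelihood Benjamini-Hochberg adjusted p of 0.586. It was 1.53 in DD + rDKK3 versus WT (SE 0.403, edgeR adjusted p 0.321), while DD + rDKK3 versus DD gave 0.23 with a 95% interval from -0.68 to 1.14. Neither difference from WT passed the adjusted threshold of 0.05.

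Egr2 (ENSMUSG00000037868.16, chromosome 10, 67371305 to 67378018), best known from myelinating glia and lymphocytes, had few counts in both WT libraries and in DD 1. Its counts were 12 and 13 in WT, 32 and 210 in DD and, with rDKK3, 55 and 159, which is 1.18, 0.913, 1.51, 12.3, 2.90 and 8.55 CPM in that order. DD 2 and DD + rDKK3 2 were high, and the 95% Poisson interval of DD 1 (1.04 to 2.14 CPM) overlapped those of WT 1 (0.609 to 2.06) and WT 2 (0.486 to 1.56). The log2 fold change was 2.72 in DD versus WT (SE 0.989, p 0.0261, edgeR adjusted p 0.586) and 0.55 without DD 2. In DD + rDKK3 versus WT it was 2.46 (SE 0.989, edgeR adjusted p 0.321).

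The 2 libraries with the most Egr2 were the 2 with the most fibroblast and stellate RNA, at 773 and 854 CPM against 51.8 to 159 CPM in the other 4. Egr2 was ranked against the other genes after its values had been seen. Over the 6 libraries, the genes with the pattern most like it were Map1a, Ddr2, Trib2, Fgf2 and Col5a1 (Pearson's r 0.990 to 0.996 among 12000 genes). Ddr2 encodes a collagen receptor and Col5a1 a fibrillar collagen chain, and Col5a1 had 6.09, 4.57, 7.43, 68.3, 15.0 and 75.5 CPM in the order WT, DD and DD + rDKK3. Macrophage markers (7 of 7 measured) summed to between 139 and 290 CPM, also highest in DD 2, but did not move as one. Lyz2, a lysozyme of myeloid cells, had 36.3, 20.3, 18.1, 133, 25.4 and 85.4 CPM in the same order. Cd14, an endotoxin co-receptor, had 121, 137, 72.8, 85.4, 70.8 and 57.5 CPM and was lower in all 4 Dkk3-null libraries than in WT (log2 fold change -0.71 in DD versus WT, p 0.00416, edgeR adjusted p 0.557), and DESeq2 called it in both comparisons with WT. Lymphocyte and neutrophil markers were below 10 counts in each library for 6 of 6 genes, with Ms4a1 at 0 in all. The part of any of these cells in the Egr2 counts was not tested.

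**Figure D2:**
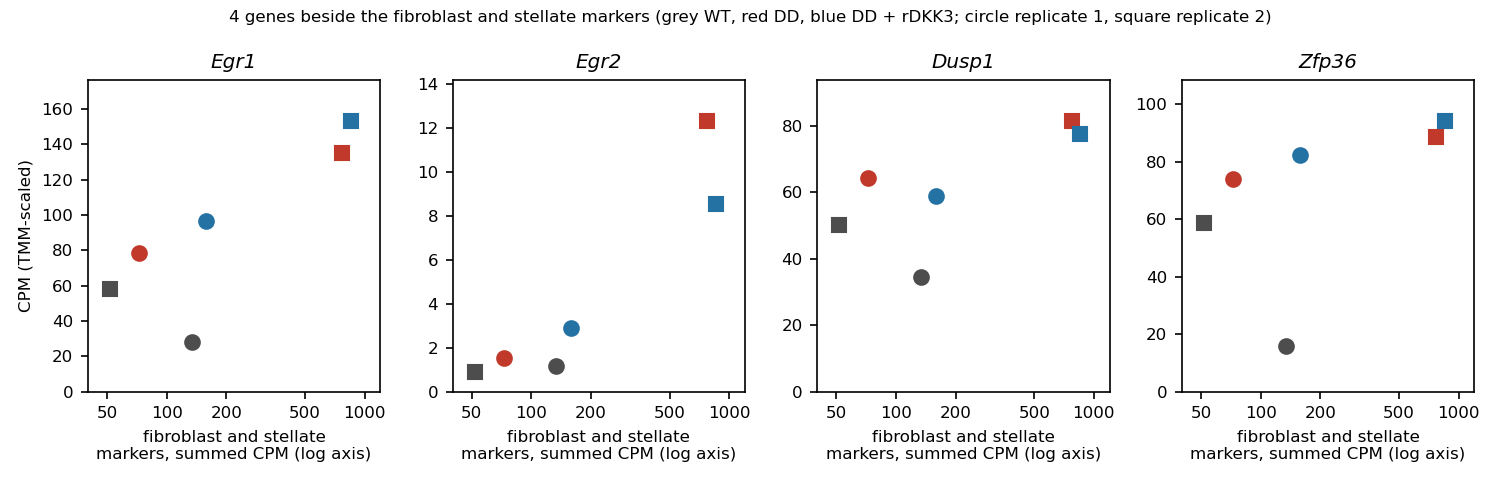
Level of Egr1, Egr2, Dusp1 and Zfp36 in CPM (linear axis from 0) against the summed CPM of 10 fibroblast and stellate markers (log axis), with WT in grey, DD in red, DD + rDKK3 in blue, circles for replicate 1 and squares for replicate 2. Each gene is highest in the 2 libraries with the highest marker sums, DD 2 and DD + rDKK3 2. For each gene DD 1, at a marker sum of 72.4 CPM, also lies above both WT 1 (134 CPM) and WT 2 (51.8 CPM). For Egr2 that step is small, with 1.51 CPM in DD 1 against 1.18 in WT 1 and 0.913 in WT 2.

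Egr3 (ENSMUSG00000033730.5, chromosome 14, 70314652 to 70320063) was counted 4 and 0 times in WT, 1 and 4 times in DD and, with rDKK3, 3 and 5 times. The count of 0 allows up to 0.211 CPM, which is the limit of 3 counts, so a small difference between groups was not detectable at this depth. Egr4, the remaining family member, had 0 counts in all 6 libraries.

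Dusp1 (ENSMUSG00000024190.8, chromosome 17, 26724564 to 26781102), the nuclear phosphatase that switches off MAP kinases, followed Egr1 closely. It was at 34.6 and 50.01 CPM in WT, 64.1 and 81.5 in DD and, with rDKK3, 58.9 and 77.5, and the Dkk3-null libraries did not overlap WT. Its log2 fold change in DD versus WT was 0.78 (SE 0.235, 1.72-fold, p 0.0112), with an edgeR adjusted p of 0.586. It was 0.69 in DD + rDKK3 versus WT (SE 0.234, edgeR adjusted p 0.321), while DD + rDKK3 versus DD gave -0.09 (95% interval -0.63 to 0.44). Over the 6 libraries Pearson's r between Dusp1 and Egr1 was 0.975, and Dusp1 stood at rank 24 of the 12000 genes ordered by likeness to Egr1.

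Zfp36 (ENSMUSG00000044786.7, chromosome 7, 28076209 to 28079678) encodes tristetraprolin, which binds AU-rich elements and hastens the decay of cytokine and growth factor messages. It was at 15.9 and 58.7 CPM in WT, 74.1 and 88.4 in DD and, with rDKK3, 82.3 and 94.2. WT 1 was far below the other 5 libraries, which spanned 58.7 to 94.2 CPM. The log2 fold change was 1.11 in DD versus WT (SE 0.485, 2.16-fold, p 0.0527, edgeR adjusted p 0.586) and 1.23 in DD + rDKK3 versus WT (SE 0.486, edgeR adjusted p 0.321). It ranged from 0.48 without WT 1 to 2.36 without WT 2 in DD versus WT, and from 0.61 to 2.48 without the same libraries in DD + rDKK3 versus WT.

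Messages known to be bound by tristetraprolin were looked up as a list of 8, of which 6 were tested. None was called by edgeR in any comparison, and 2 had an unadjusted p under 0.05 in DD versus WT, beside 8.26% of all genes. These were the neutrophil chemokines Cxcl1, at 9.14 and 32.8 CPM in WT against 1.99 and 7.11 in DD (log2 fold change -2.23, p 0.0145), and Cxcl2, at 3.93 and 16.3 against 2.32 and 4.70 (log2 fold change -1.55, p 0.0401). In both, WT 2 held the highest level, as it did for Zfp36 between the WT libraries, and for Cxcl2 the groups overlapped. Ptgs2, the inducible cyclooxygenase, and Lif, a cytokine of the interleukin 6 family, had log2 fold changes of 0.42 and 0.29. DESeq2 and limma-voom called 0 of these messages in any comparison.

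Ier3 (ENSMUSG00000003541.7, chromosome 17, 36132576 to 36133815) was at 51.7 and 111 CPM in WT, 112 and 121 in DD and, with rDKK3, 95.1 and 85.5. WT 1 alone was low, WT 2 and DD 1 differed by less than 1 CPM, and both treated libraries lay below both DD libraries. The log2 fold changes were 0.51 in DD versus WT (SE 0.315), -0.36 in DD + rDKK3 versus DD (95% interval -1.09 to 0.37) and 0.15 in DD + rDKK3 versus WT. The edgeR adjusted p was 0.601, 1.00 and 0.824 in the same order.

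Ier2 (ENSMUSG00000053560.6, chromosome 8, 85387960 to 85389483), a small nuclear protein, was at 58.9 and 59.5 CPM in WT, 57.7 and 74.96 in DD and, with rDKK3, 60.5 and 72.3. Both replicate 2 libraries of the Dkk3-null groups were above the other 4, which lay between 57.7 and 60.5 CPM. The log2 fold change was 0.16 in DD versus WT, with a 95% interval from -0.25 to 0.58, and 0.00 in DD + rDKK3 versus DD.

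Nr4a1 (ENSMUSG00000023034.8, chromosome 15, 101152150 to 101172676), an orphan nuclear receptor, had log2 fold changes below 0. It was at 7.86 and 4.07 CPM in WT, 3.50 and 4.76 in DD and, with rDKK3, 3.54 and 3.55, where WT 1 was the highest library and the other 5 lay within 3.50 to 4.76 CPM. The log2 fold change was -0.52 in DD versus WT (SE 0.354, edgeR adjusted p 0.613) and -0.74 in DD + rDKK3 versus WT (SE 0.357, p 0.0738, edgeR adjusted p 0.345).

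Btg2 and Klf6 were the 2 members of highest CPM. Btg2 (ENSMUSG00000020423.7, chromosome 1, 134002908 to 134006858) was at 519 and 522 CPM in WT, 475 and 453 in DD and, with rDKK3, 549 and 480. Its log2 fold change in DD versus WT was -0.17 with a 95% interval from -0.56 to 0.22, and 0.040 when counts were scaled by library size alone. Klf6 (ENSMUSG00000000078.8, chromosome 13, 5911481 to 5920393) spanned 307 to 336 CPM over all 6 libraries, and its log2 fold changes were between -0.01 and 0.00 in the 3 comparisons, with a 95% interval from -0.38 to 0.37 in DD versus WT, where library size alone gave 0.21.

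Which of these genes differ when secreted DKK3 is absent was asked by setting DD beside WT. edgeR called 0 of the 9 tested, beside 0.0407% of all 14738 genes, and DESeq2 and limma-voom also called 0. At an unadjusted p under 0.05 there were 3 members (Egr1, Egr2 and Dusp1), all higher, beside 8.26% of all genes. Egr1 and Dusp1 are also genes that the study singled out on these libraries, so their place in the count is not independent evidence of a direction. The DD libraries lay above both WT libraries in 5 members (Egr1, Egr2, Ier3, Dusp1 and Zfp36), beside 18.1% of all genes, and below both in 1 (Btg2), beside 19.7%. The median log2 fold change of the 9 was 0.51, that of all genes was 0.0164, and the members ranged from -0.52 (Nr4a1) to 2.72 (Egr2).

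**Figure D3:**
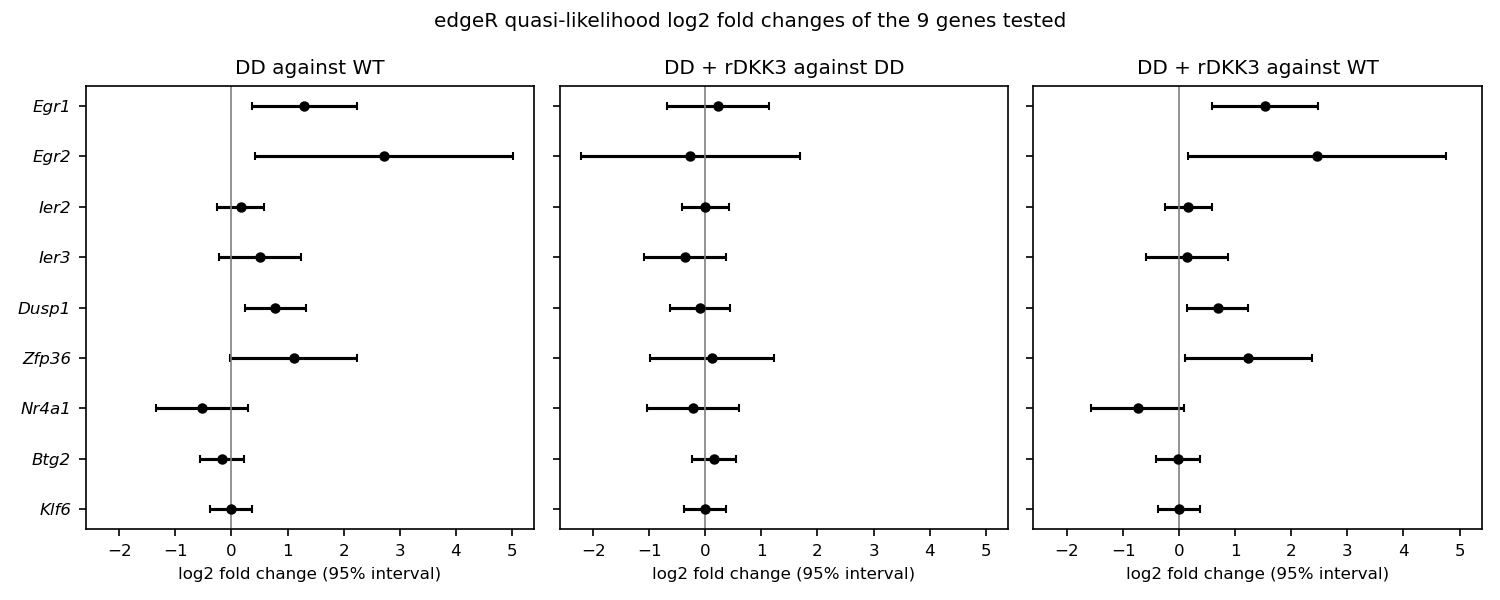
Log2 fold change (x axis) of the 9 genes tested in the 3 comparisons, from the edgeR quasi-likelihood fit of 6 libraries, with bars for the 95% interval. The intervals of Egr1, Egr2 and Dusp1 lie above 0 versus WT in both Dkk3-null groups, before adjustment for 14738 genes, and all 9 intervals include 0 in DD + rDKK3 versus DD.

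The call on 4 members depended on the filter. When all 26506 genes with any count were tested, Egr1, Egr2, Dusp1 and Zfp36 passed the adjusted threshold in DD versus WT and in DD + rDKK3 versus WT, where 1.99% and 2.97% of all genes also passed, including 8 of 10 fibroblast and stellate markers in each. For Egr2 in DD versus WT the log2 fold change was then 2.78, close to 2.72 with the filter. The edgeR adjusted p was 1.63e-10 in place of 0.586. Its counts were the same in both fits (12 and 13 in WT, 32 and 210 in DD), so the fits differed in the spread they assigned. These calls are therefore not read as a stronger result.

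Whether added protein moves these messages was asked by setting DD + rDKK3 beside the same DD libraries. edgeR called 0 of 9 members beside 0% of all genes, DESeq2 and limma-voom called 0, and 0 had an unadjusted p under 0.05 beside 1.98% of all genes. The treated libraries lay above both DD libraries in 1 member (Btg2), beside 15.1% of all genes, and below both in 1 (Ier3), beside 14.4%. The median log2 fold change was -0.0038, that of all genes being -0.00282. For Egr1 and Zfp36 both treated libraries were above their same-numbered DD library, and for Dusp1 both were below it, with differences smaller than those between the 2 replicates of a group.

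The comparison of DD + rDKK3 with WT, which shares its WT libraries with the first and its treated libraries with the second, gave 0 of 9 members called by edgeR beside 0.0475% of all genes, and 0 by DESeq2 and limma-voom. DESeq2 gave no adjusted p for Egr2 and Nr4a1 in this comparison, so it could not call them. At an unadjusted p under 0.05 there were 4 (Egr1, Egr2, Dusp1 and Zfp36), all higher, beside 15.3% of all genes. The treated libraries lay above both WT libraries in 5 members (Egr1, Egr2, Ier2, Dusp1 and Zfp36), beside 27.9% of all genes, and below both in 1 (Nr4a1), beside 27.1%. The median log2 fold change was 0.17, beside 0.0171 over all genes.

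The spread between replicates differed widely among the members. Between the WT libraries, log2 CPM was higher in WT 2 by 1.88 for Zfp36, 1.10 for Ier3 and 1.03 for Egr1, where the median size of this difference over all genes was 0.299. A difference larger than that of Zfp36 was seen in 1.67% of all genes, and one larger than that of Egr1 in 7.83%. Nr4a1 was lower in WT 2 by 0.93, and the differences of Ier2 and Btg2 were 0.01. Between the DD libraries Egr2 differed by 2.93, a size that 0.855% of all genes exceeded, and Zfp36 and Ier3, which had differed most in WT, differed by 0.26 and 0.11. The 2 WT libraries also differ in labelled sex.

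**Figure D4:**
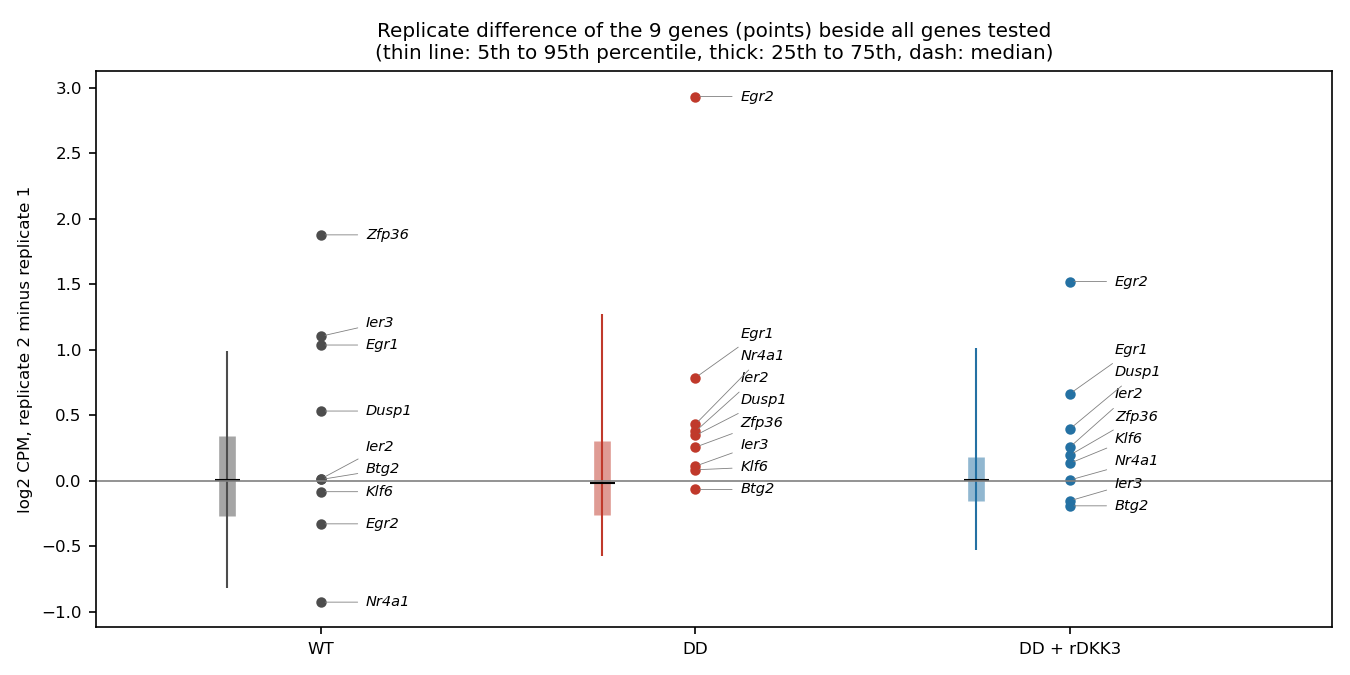
Difference in log2 CPM between replicate 2 and replicate 1 (y axis) of the 9 genes in each group, as labelled points beside the spread of all genes tested (thin line from the 5th to the 95th percentile, thick line from the 25th to the 75th, dash at the median). Zfp36, Ier3 and Egr1 are high in WT 2, and Egr2 is high in replicate 2 of both Dkk3-null groups.

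Each library was left out in turn. Without WT 2, whose levels of Egr1, Ier3, Dusp1 and Zfp36 were the nearer to DD, the median of the members in DD versus WT was 1.08 and 5 had an unadjusted p under 0.05. Without WT 1 that number was 0, and without DD 2 it was also 0. The fold change of Egr1 then ranged from 0.85 (without DD 2) to 1.92 (without WT 2) on the log2 scale, and that of Dusp1 from 0.56 (without WT 1) to 1.08 (without WT 2). For DD + rDKK3 versus WT the number at an unadjusted p under 0.05 was 2 without WT 1 and 1 without DD + rDKK3 2, and the median was 0.81 without WT 2. In that comparison Egr1 ranged from 1.12 (without WT 1) to 2.15 (without WT 2), Dusp1 from 0.47 to 0.99 without the same libraries, Egr2 from 1.49 (without DD + rDKK3 2) to 3.04 (without DD + rDKK3 1), and Nr4a1 from -1.14 (without WT 2) to -0.18 (without WT 1).

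**Figure D5:**
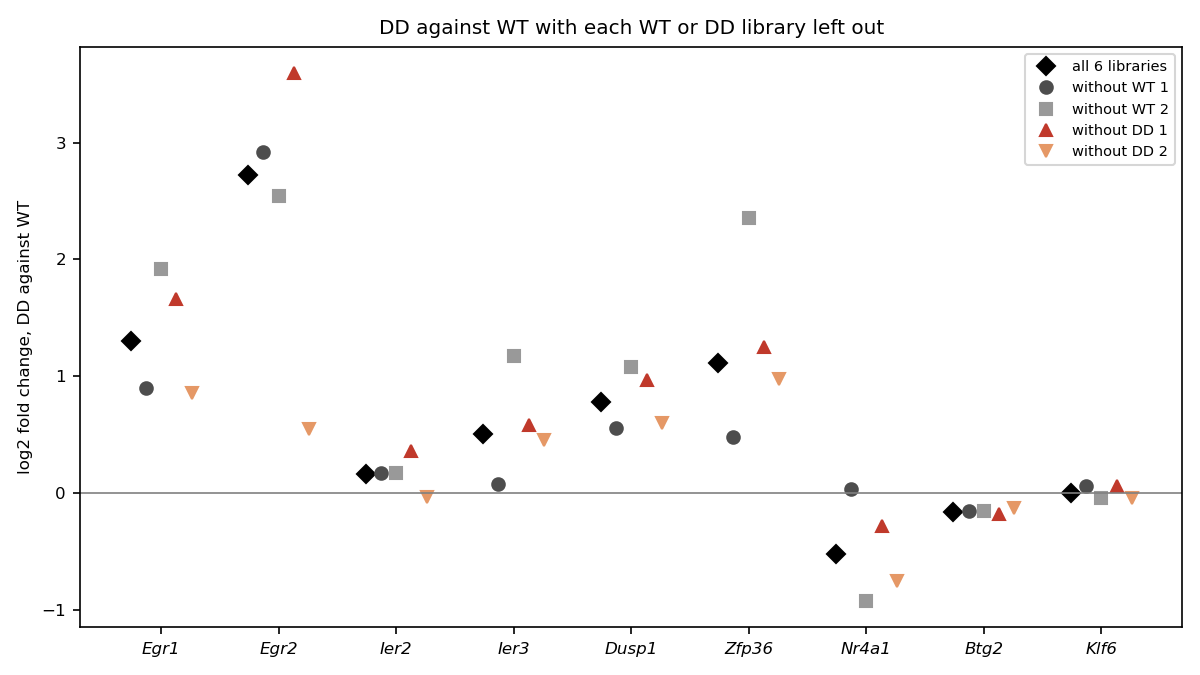
Log2 fold change in DD versus WT (y axis) of the 9 genes with all 6 libraries (diamond) and without WT 1, WT 2, DD 1 or DD 2 in turn. Egr1, Egr2, Dusp1, Zfp36 and Ier3 stay above 0 in each of these fits, Egr2 is at 0.55 without DD 2, and Ier3 is at 0.08 without WT 1.

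The members did not share a single pattern over the 6 libraries, all of which share the same group structure. Pearson's r was 0.931 between Egr1 and Zfp36, 0.922 between Dusp1 and Zfp36 and 0.951 between Egr2 and Ier2, while it was -0.734 between Egr1 and Nr4a1. Among 12000 genes, those most like Egr1 were Gas2l3, Kyat3, Gm15419, Itsn1 and Sash1 (r 0.989 to 0.994). Those most like the mean of the 9 members were Rasgrp3, Nid1, B3gnt9, Itsn1 and Klhl5 (r 0.984 to 0.999). Nid1, a basement membrane component, had 11.1, 17.4, 21.5, 37.3, 22.3 and 32.6 CPM in the order WT, DD and DD + rDKK3. These correlations rest on 6 points and are given as a description.

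Fos, the AP-1 subunit induced with Egr1 by the same route, had 8.06 and 37.7 CPM in WT, 78.8 and 118 in DD and, with rDKK3, 55.4 and 98.0, and stood at rank 82 of 12000 in likeness to Egr1. Its log2 fold change in DD versus WT was 2.09 (SE 0.613, edgeR adjusted p 0.586). Of 8 AP-1 genes, 7 were tested and 0 were called by edgeR, DESeq2 or limma-voom in any comparison. Unadjusted p-values under 0.05 in DD versus WT were those of Fos and Fosl1 (0.90), both higher, and of Atf3 (-0.83), lower, the values being log2 fold changes, beside 8.26% of all genes. Junb was at 75.5 and 123 CPM in WT against 121 and 168 in DD, Jun at 55.8 and 85.9 against 80.6 and 81.0, and Jund at 443 and 292 against 326 and 269.

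The other immediate early genes outside AP-1 formed a list of 32, of which 30 were tested. edgeR called 0 in any comparison, and DESeq2 called 1, Ccn2, in DD versus WT, and limma-voom 0. In that comparison 16 of the 30 had a log2 fold change above 0, their median was 0.01, and 4 had an unadjusted p under 0.05, all higher, beside 8.26% of all genes. These 4, named for that p, were the zinc finger factor Klf4 (log2 fold change 1.16), the matricellular protein Ccn2 (0.76), the synaptic gene Arc (0.80) and the kinase Plk3 (0.50). The 4 most abundant of the list had fold changes near 0 on the log2 scale: Sgk1 -0.23, Mcl1 -0.14, Rhob -0.18 and Gadd45b -0.15.

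Upstream of these genes, SRF, its partners, CREB1 and the RSK and MSK kinases formed a list of 12, all tested. edgeR, DESeq2 and limma-voom called 0 in any comparison. All 12 had a log2 fold change above 0 in DD versus WT, with a median of 0.24 and a range from 0.04 to 0.33, and 0 had an unadjusted p under 0.05. The median of all genes in that comparison was 0.0164. With RLE scaling and with library size alone all 12 were again above 0, and the list's median lay 0.22 above that of all genes under each of the 3 scalings. A change of scaling shifts all genes by nearly the same amount, so these settings are no separate check. In DD + rDKK3 versus WT, 2 had an unadjusted p under 0.05, Srf (0.41) and Creb1 (0.43), with the log2 fold changes in brackets, beside 15.3% of all genes. The most abundant was the kinase Rps6ka1, at 83.0 and 69.7 CPM in WT and 87.5 and 70.7 in DD.

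Downstream of EGR1, 10 corepressor and target genes were tested, and edgeR, DESeq2 and limma-voom called 0 in any comparison. In DD versus WT, 2 had an unadjusted p under 0.05, both higher, beside 8.26% of all genes. The corepressor Nab2, an EGR1 target that closes a feedback loop, was at 3.05 and 4.14 CPM in WT, 5.96 and 7.05 in DD and, with rDKK3, 5.65 and 7.31 (log2 fold change 0.84 in DD versus WT, p 0.0155), and its Dkk3-null libraries did not overlap WT. The other was Fgf2, the fibroblast growth factor already named among the genes most like Egr2. Nab1 (-0.02), the growth factor Pdgfa (-0.12) and the matrix protein Thbs1 (0.21) had small log2 fold changes.

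Among 12 ERK feedback genes, all tested, edgeR and limma-voom called 0 in any comparison, and DESeq2 called 1, Phlda1, in DD versus WT and in DD + rDKK3 versus DD. Phlda1, a pleckstrin homology domain protein, was at 20.9 and 25.1 CPM in WT, 44.5 and 48.4 in DD and, with rDKK3, 25.7 and 25.9. Its log2 fold change was 1.01 in DD versus WT and -0.85 in DD + rDKK3 versus DD, where Egr1, Egr2, Dusp1 and Zfp36 lay between -0.26 and 0.23. The sprouty-related inhibitors Spred1 and Spred2 had log2 fold changes of 0.31 and 0.04 in DD versus WT, and the phosphatase Dusp4 of 0.64. Dusp6, a cytoplasmic ERK phosphatase, was at 15.8 and 13.6 CPM in WT, 21.6 and 27.7 in DD and, with rDKK3, 13.4 and 17.2. Its log2 fold change was 0.75 in DD versus WT (p 0.00796, edgeR adjusted p 0.586) and -0.69 in DD + rDKK3 versus DD (p 0.0109, edgeR adjusted p 1.00), comparisons that share the DD libraries. Phlda1 and Dusp6 were the genes of this list with an unadjusted p under 0.05, in DD versus WT (2 of 12, beside 8.26% of all genes) and in DD + rDKK3 versus DD (2 of 12, beside 1.98%). In the latter, 11 of the 12 had a log2 fold change below 0, with a median of -0.37 against -0.00282 for all genes. The treated libraries lay below both DD libraries in 6 of the 12, beside 14.4% of all genes, and above both in 1, beside 15.1%. In DD versus WT, which shares the DD libraries, 10 of the 12 were above 0, with a median of 0.29 against 0.0164 for all genes. The DD libraries lay above both WT libraries in 5 of the 12, beside 18.1% of all genes, and below both in 1, beside 19.7%. In DD + rDKK3 versus WT, 7 of the 12 were above 0, with a median of 0.098 against 0.0171 for all genes.

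Because Dusp1 and Zfp36 are also known to respond to glucocorticoid and the medium of all groups held dexamethasone, 8 glucocorticoid-induced genes were set beside them. edgeR called 0 in any comparison, and DESeq2 called 1, Fkbp5, in DD + rDKK3 versus WT, and limma-voom 0. Fkbp5, a cochaperone of the glucocorticoid receptor, was at 240 and 271 CPM in WT, 400 and 375 in DD and, with rDKK3, 365 and 464 (log2 fold change 0.60 in DD versus WT, p 0.0134). The median of the 8 in DD versus WT was -0.10, with Ddit4 at -0.04, Errfi1 at 0.14 and Sgk1 at -0.23. In DD + rDKK3 versus DD all 8 had a log2 fold change above 0, with a median of 0.26 against -0.00282 for all genes. The treated libraries lay above both DD libraries in 5 of the 8, beside 15.1% of all genes, and below both in 0, beside 14.4%. In DD + rDKK3 versus WT, 7 of the 8 were above 0, with a median of 0.25 against 0.0171 for all genes. Of 6 heat shock genes, which handling stress can raise, edgeR, DESeq2 and limma-voom called 0 in any comparison. The constitutive chaperone Hspa8 and the small heat shock gene Hspb1 were highest in WT 1, at 3277 and 259 CPM against ranges of 2247 to 2764 and 128 to 231 CPM in the other 5. The inducible Hspa1a and Hspa1b and the cochaperone Hsph1 were instead lowest in WT 1, at 1.47, 2.65 and 41.2 CPM against 1.61 to 2.60, 4.09 to 7.004 and 44.7 to 60.6 CPM. Hspa1a rested on 15 counts in WT 1 and on 30 in DD + rDKK3 2, the next lowest library. Among the members Egr1, Zfp36, Ier3 and Dusp1 were also lowest in WT 1, whereas Nr4a1 was highest there. The remaining members were lowest in other libraries. WT 1 was also the library with the fewest counts, 12018473. The part of the medium and of handling in these levels was not tested.

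Markers of other cells were read beside the members. Endothelial markers (6 of 6 measured) summed to between 62.5 and 117 CPM, lowest in WT 1 and highest in DD 2, and islet markers (6 of 6) to between 152 and 283 CPM. Ductal markers (8 of 8) summed to between 1633 and 2648 CPM, highest in DD 2. Mesothelial markers, of which 2 of 4 were measured, summed to between 8.43 and 34.7 CPM, highest in DD 2. The mesothelial gene Msln had 7.76 and 8.43 CPM in WT, 14.2 and 32.6 in DD and, with rDKK3, 12.0 and 12.2 (log2 fold change 1.53 in DD versus WT, edgeR adjusted p 0.532), and DESeq2 called it in DD versus WT. Over all the marker lists edgeR and limma-voom called 0 genes in any comparison, and DESeq2 called Cd14 and Msln. The sum of the acinar markers was highest in WT 1 and lowest in DD 2, as were Ctrb1 and Prss2 singly, but the list did not move as one. The acinar transcription factors Ptf1a and Bhlha15 were lowest in WT 1, at 119 and 19.5 CPM, and Cpa1 was higher in WT 2 than in WT 1. The part of these cells in the differences of the members was not tested.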

How the data were processed

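The members and all gene lists were chosen with earlier results of these data known. Per the labels and the study's methods, the authors aligned strand-specific read pairs with STAR 2.7.9a to GRCm39 with the basic GENCODE M32 annotation and deposited raw counts per gene, with no normalisation and no pooling of replicates. The submitters' processing notes also name DESeq2 1.38.0. The table's 92 spike-in features had 0 counts and were left out. Counts cannot show which transcript of a gene was read, nor whether a message was made or only decayed more slowly.

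From these counts, genes were kept with edgeR 4.0.16 filterByExpr (minimum count 10, minimum total 15), scaled by TMM and fitted by the quasi-likelihood model over 6 libraries in 3 groups, with 3 residual degrees of freedom. Two-sided p-values were Benjamini-Hochberg adjusted over 14738 genes, and a gene was called under 0.05. CPM used the TMM-scaled totals of the tested genes, and log2 CPM a prior count of 2. Intervals of single libraries are exact 95% Poisson intervals and the limit for a count of 0 is 3 counts. These bounds describe counting error alone, because no molecular identifiers were used. The labelled ages differ between the replicates of each group, and the labelled sexes differ between the WT replicates. Both kinds of label are uncertain, and no label states outright that replicates came from separate animals. The p-values thus measure the spread between these samples, which may be technical, and replicates did not match within counting noise. Transcript lengths were those of the canonical GENCODE M39 transcripts.

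Named genes were all 10 members, the up to 4 most abundant genes of each other list where the list is described and genes called, Fos and Dkk3, and the 5 genes most like Egr1 and like the mean member score at an average log2 CPM of at least 1. Klf4, Ccn2, Arc, Plk3, Nab2, Fosl1, Atf3, Srf, Creb1, Dusp6, Hspa1a, Hspa1b, Ptf1a, Bhlha15, the genes most like Egr2 and genes called by DESeq2 alone were named after their values were seen. For 1 gene among the lists, values are not reported here. Alternatives were median-ratio (RLE) scaling, library size alone, no filter, DESeq2 1.42.0, limma-voom (limma 3.58.1), a replicate block, a fit of the 2 groups compared and each library left out. The fit was tested on simulated data.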

Additional observations from a re-analysis of the deposited data

How the results depend on the processing

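Among the alternatives, the count of members called moved from 0 to 4 without the filter on low counts, in DD against WT and in DD + rDKK3 against WT, while 528 and 788 of all genes were called in place of 6 and 7. DESeq2 called 80, 5 and 74 of all genes and 0 members, and limma-voom 8, 0 and 3 and 0 members. With library size as the only scaling, the median of all genes was 0.219 and 0.180 against WT. Depth limits Egr3, which did not pass the filter, and Egr2 in WT, with 12 and 13 counts.

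The labels do not pair the libraries. Deviations of same-numbered libraries from their group means correlated over genes at -0.387 (WT and DD), 0.650 (DD and DD + rDKK3) and -0.247 (WT and DD + rDKK3). With the replicate block, 0 members and 7, 0 and 5 of all genes were called. With the WT numbers crossed, a setting chosen after seeing the data, 2, 0 and 3 members and 296, 29 and 566 of all genes were called.

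Leaving out each library in turn, 0 members were called, and the median of the members ranged from 0.17 to 1.08 in DD against WT and from 0.167 to 0.811 in DD + rDKK3 against WT, the highest without WT 2 in both. Log2 fold changes that changed sign without 1 library ranged, in DD against WT, from -0.92 to 0.034 for Nr4a1, -0.042 to 0.064 for Klf6 and -0.035 to 0.36 for Ier2. For DD + rDKK3 against DD the ranges were -0.15 to 0.67 for Egr1, -1.26 to 1.91 for Egr2, -0.20 to 0.20 for Ier2, -0.31 to 0.090 for Dusp1, -0.025 to 0.25 for Zfp36, -0.45 to 0.018 for Nr4a1 and -0.079 to 0.046 for Klf6. For DD + rDKK3 against WT they were -0.28 to 0.81 for Ier3, -0.12 to 0.082 for Btg2 and -0.067 to 0.058 for Klf6.

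Signs also changed under other settings. In DD against WT, Btg2 was 0.040 and Klf6 0.21 with library size alone, Klf6 0.053 without the filter and 0.012 with only the 2 groups compared, and Ier2 -0.0062 with the replicate block within Dkk3-null libraries. In DD + rDKK3 against DD, Ier2 was -0.0030 with RLE, -0.036 with library size alone, -0.0064 without the filter, -0.0029 with DESeq2 and -0.0029 with only the 2 groups, and Egr2 was 0.30 with limma-voom, 0.012 with the replicate block and 0.082 with the block within Dkk3-null libraries. In DD + rDKK3 against WT, Btg2 was 0.15 and Klf6 0.16 with library size alone, 0.029 and 0.041 without the filter, and Btg2 0.045 with the block within Dkk3-null libraries. The cause of these changes was not tested.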
